A study of Mus musculus with 4 samples.

Results

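The 7 genes described here encode the proteins that fasten chromosome ends to the nuclear envelope during meiosis: Terb1, Terb2 and Majin, Sun1 and Kash5, and Spdya and Cdk2. They were picked by name and function, with earlier results of these data known, and all 7 were found among the 21883 protein-coding genes of the RefSeq table for the mm10 genome (GRCm38.p6). Terb1 is also written Ccdc79, and Kash5 is also written Ccdc155. The data are ATAC-seq peak lists, which mark stretches of DNA that a transposase could enter, from germ cells of female C57BL/6 embryos at embryonic day 15.5. All cells were sorted by an Oct4-EGFP reporter, so both groups carried it. The groups are Control (2 libraries) and Snf5 CKO (2 libraries), a conditional knockout of Snf5, the core SWI/SNF chromatin remodelling subunit encoded by Smarcb1. What drives the knockout, the genotype of the controls beyond that word, and how many embryos went into each library are details the labels leave out, so the spread between libraries of a group may be technical.

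In meiotic prophase the telomeres attach to the inner face of the nuclear envelope and are moved along it, which helps homologous chromosomes to find each other. TERB1, TERB2 and MAJIN form the bridge from telomere to membrane: TERB1 binds the telomere protein TRF1, TERB2 joins TERB1 to MAJIN, and MAJIN sits in the inner nuclear membrane. SUN1 crosses the inner membrane and KASH5 the outer one, and KASH5 recruits the dynein motor in the cytoplasm. Speedy A, the product of Spdya, binds and activates the kinase CDK2 at the attached telomeres.

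All 7 genes had a peak at a gene end in both control libraries, and 6 of 7 had such a peak in all 4 libraries. Over all 21883 protein-coding genes the shares were 63.3% in Control 1, 63.0% in Control 2 and 55.0% in all 4 libraries. Among the members Majin was the exception, with no peak in Snf5 CKO 1 and a weak one in Snf5 CKO 2. At each of the other 6 genes the peak at the gene start was shorter in both Snf5 CKO libraries than in both controls. For Terb2, without a listed start site, this was the peak at its lower-coordinate end. The mean length of these peaks fell to between 54.0% and 79.5% of the control mean. Shortening of this kind was common across the genome. Of 12025 genes with such a peak in all 4 libraries, 78.8% were shorter in both Snf5 CKO libraries, so the members' count is near the background and is not particular to them.

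The promoter sequences below show where the called peaks drew back at a start site. They come from the RefSeq promoter table for GRCm38.p6, which holds 250 bases before and 50 bases after a start site and had an entry for 5 of the 7 members. Terb1 and Kash5 are shown because their promoters held bases that lay under both control peaks and under neither Snf5 CKO peak, and those bases are in capitals. The Kash5 sequence lies at chr7:45204843-45205142 and the Terb1 sequence at chr8:104509838-104510137, both on the minus strand, and both are written 5′ to 3′ along the gene.
Kash5: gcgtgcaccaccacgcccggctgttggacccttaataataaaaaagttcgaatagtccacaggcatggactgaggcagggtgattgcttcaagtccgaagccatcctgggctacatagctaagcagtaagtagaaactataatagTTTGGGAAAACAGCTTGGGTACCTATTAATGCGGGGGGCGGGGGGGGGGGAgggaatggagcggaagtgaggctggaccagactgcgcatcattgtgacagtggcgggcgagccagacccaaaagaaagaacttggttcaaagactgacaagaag
Terb1: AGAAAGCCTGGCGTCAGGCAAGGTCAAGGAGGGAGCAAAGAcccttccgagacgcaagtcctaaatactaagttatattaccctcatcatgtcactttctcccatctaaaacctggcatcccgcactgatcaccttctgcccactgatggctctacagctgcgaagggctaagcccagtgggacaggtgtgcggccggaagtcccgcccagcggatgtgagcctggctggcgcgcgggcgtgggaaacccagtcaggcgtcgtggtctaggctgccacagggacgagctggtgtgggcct
In Kash5 the capitals are 51 bases that lie 55 to 105 bp upstream of the start site. In Terb1 they are 41 bases that lie 210 to 250 bp upstream. The Kash5 promoter had 171 and 155 of its 300 bases under the peaks of Control 1 and Control 2, none under the Snf5 CKO 1 peak and 104 under the Snf5 CKO 2 peak. The Terb1 promoter was wholly covered in both controls, and 219 and 259 bases were covered in Snf5 CKO replicates 1 and 2.

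The promoters of the kinase pair, Spdya and Cdk2, are shown as promoters that stayed almost wholly covered and held motif matches. The first Sun1 promoter, at chr5:139200387-139200686 and not printed, was likewise covered over all 300 bases in every library. Spdya had all 300 bases under a peak in every library, and Cdk2 had all 300 except in Snf5 CKO 2, where 271 were covered. A covered promoter does not mean that the peak kept its upstream edge. That edge drew back on average by 332 bp at Spdya and 334 bp at Cdk2. The values were 201 bp at Terb1, 145.5 bp at Kash5 and 114.5 bp at Sun1. In the controls the Spdya and Cdk2 peaks reached farther upstream, 599.5 and 575.5 bp on average, against 390 bp at Terb1 and 113 bp at Kash5. Capitals here mark matches to the motifs searched on both strands. The Spdya sequence lies at chr17:71551811-71552110 on the plus strand and the Cdk2 sequence at chr10:128705002-128705301 on the minus strand.
Spdya: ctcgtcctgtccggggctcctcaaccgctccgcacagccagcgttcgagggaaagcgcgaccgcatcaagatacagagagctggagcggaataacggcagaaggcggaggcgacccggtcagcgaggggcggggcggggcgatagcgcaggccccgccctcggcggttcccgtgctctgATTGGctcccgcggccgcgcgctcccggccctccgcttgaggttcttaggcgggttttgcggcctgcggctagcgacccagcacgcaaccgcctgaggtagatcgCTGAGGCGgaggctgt
Cdk2: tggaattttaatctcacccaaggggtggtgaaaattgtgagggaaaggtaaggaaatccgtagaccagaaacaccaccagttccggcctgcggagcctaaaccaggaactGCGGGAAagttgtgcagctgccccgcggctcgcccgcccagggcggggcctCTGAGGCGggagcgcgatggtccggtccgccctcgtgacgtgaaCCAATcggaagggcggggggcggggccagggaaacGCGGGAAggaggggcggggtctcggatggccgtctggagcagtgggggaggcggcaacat
The motifs were CACGTG, the E-box of the MYC and MGA partners of MAX; CNCCTCAG, a motif linked to STRA8, the partner of Meiosin; GCGGGAA, an E2F-like core; and CCAAT, the NF-Y box. The STRA8-linked motif occurred once in Spdya, once in Cdk2 and once in the Sun1 promoter that held a peak, and in 8.52% of the 21262 protein-coding promoters of the table. The E2F-like core occurred at 2 places in Cdk2 and in no other member's promoter, against 5.95% of promoters. The NF-Y box occurred in Spdya, in Cdk2 and in both Sun1 promoters, against 38.2% of promoters, and the E-box in none of the members' promoters, against 7.84%. Terb1 and Kash5 held none of the motifs in these windows. These 2 promoters also had fewer CpG dinucleotides, 16 and 11, than Cdk2 with 25, Spdya with 38 and the first Sun1 promoter with 36, but more than the second Sun1 promoter, which held no peak, with 4; the median over all promoters was 13. A match is a run of letters and says nothing about binding. Whether motifs or CpG content go with the retraction of a peak was not tested.

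Facts of the whole series that touch these values are few. The 4 lists held 28625 peaks (Snf5 CKO 2) to 45422 peaks (Snf5 CKO 1), and no read counts were used, so the depth behind each peak is unknown. A gene end without a peak may therefore have been accessible below what that library could detect. Smarcb1 itself had gene-end peaks of 929 and 1139 bp in the controls, while both Snf5 CKO lists lacked one; the labels do not say which part of the gene was deleted. Of 8 germ cell marker genes, 8 had a gene-end peak in every library. Peaks were also found at 3 of 5 ovarian supporting cell markers in each library, at 3, 3, 3 and 1 of 5 stroma and mesenchyme markers (Control 1, Control 2, Snf5 CKO 1 and Snf5 CKO 2), and at 2, 1, 1 and 1 of 5 endothelium and blood markers. Among these, Amhr2, Gata4, Pdgfra, Dcn, Cdh5, Ptprc and Hbb-bs had none in any library. Of 3 male germ cell markers, Nanos2 and Dnmt3l had no peak in any library. Tdrd1 had a peak in both controls and in neither Snf5 CKO library, as did 2.97% of all genes. Fewer cells of a type and a weaker signal per cell cannot be told apart in sorted bulk libraries, and the part of other cell types in the results was not tested.

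Lengths below are those of the start peak, a measure chosen after seeing the data; the sum over both gene ends, the planned measure, follows further on. This is the whole peak within 1 kb of a start site of the promoter table, or, for Terb2 and Majin, which have no entry there, the peak at the only gene end that held peaks, the lower-coordinate one. Where a gene outside the members had several start sites or several peaks there, the lengths of all those peaks were summed. With 2 libraries against 2, a two-sided exact permutation test on length gave p = 0.333 for each of the 7 genes, before and after adjustment over the 7. This is the smallest p that the design allows, so no single length difference can pass a conventional threshold, and each is set against the spread between replicates. Where values are given in pairs, the first is replicate 1 and the second replicate 2 of that group.

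**Figure D1:**
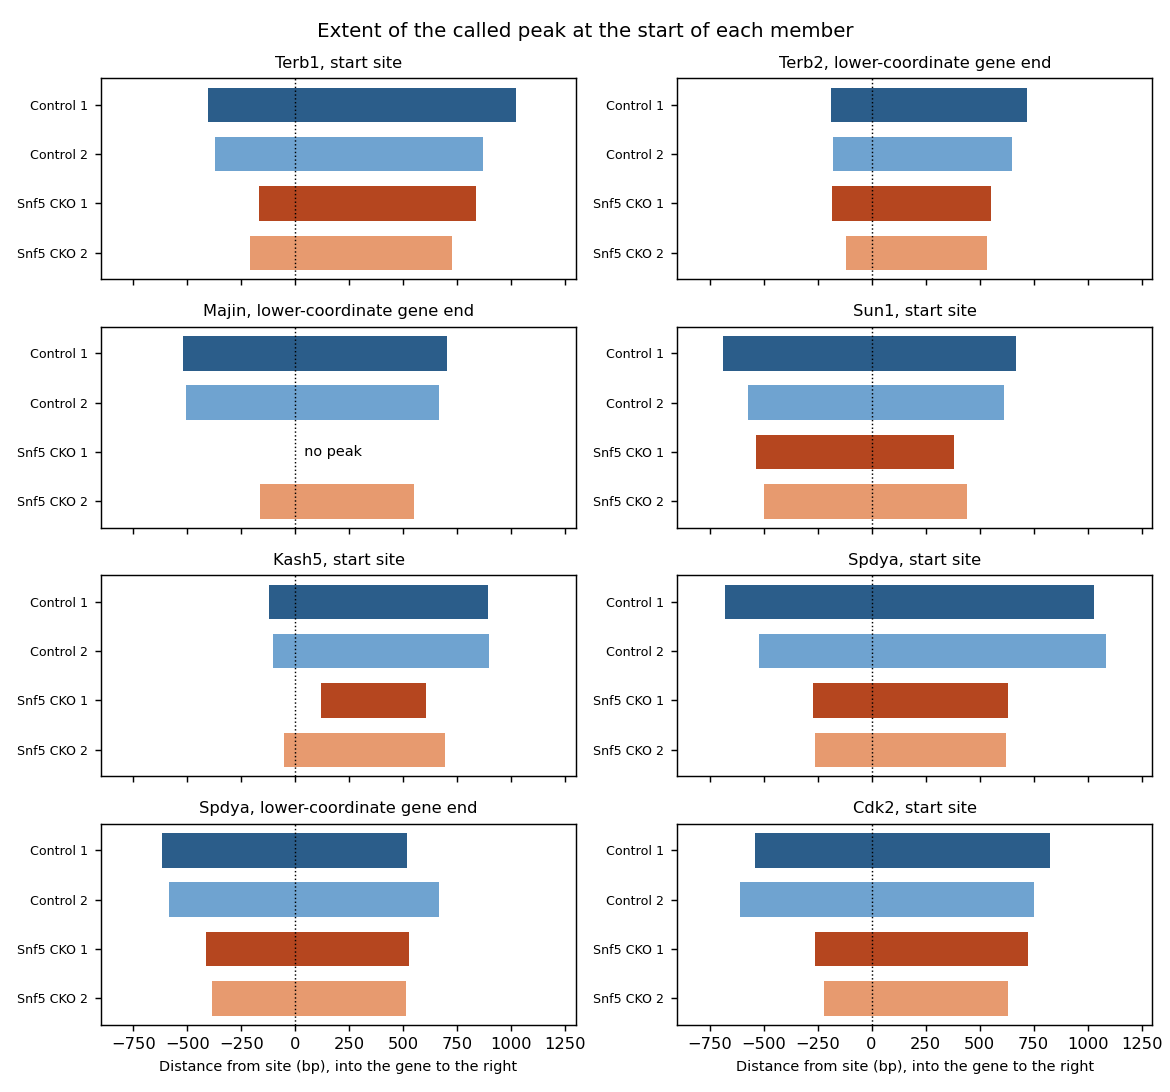
Extent of the called peak at the start of each member in the 4 libraries, in bp from the start site or lower-coordinate gene end (dotted line), with the gene to the right. Blue bars are controls and orange bars are Snf5 CKO; Majin has no bar in Snf5 CKO 1, and the Kash5 bar of Snf5 CKO 1 begins 119 bp inside the gene.

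Among the 3 genes of the telomere bridge, Terb1 (gene identifier 320022, chromosome 8, 104446718 to 104509887, minus strand) had a peak over its start site in every library. It measured 1426 and 1245 bp in the controls and 1006 and 937 bp in the mutant libraries. The groups did not overlap: the control mean was 1336 ± 128 bp (SD, n = 2) and the Snf5 CKO mean 972 ± 48.8 bp (SD, n = 2), a log2 ratio of −0.46. The peak drew back on both sides. It reached 406 and 374 bp upstream of the start site in the controls and 169 and 209 bp in Snf5 CKO, and inside the gene 1019 and 870 bp against 836 and 727 bp. Nae1, a gene of the NEDD8 conjugation pathway, ends 1141 bp upstream of this start site.

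Terb2 (gene identifier 74401, chromosome 2, 122186272 to 122206393) had the lowest control mean of the 7 genes. Its lengths were 909 and 830 bp in the controls, and 733 and 649 bp in the mutant libraries. The groups did not overlap, with means of 870 ± 55.9 bp and 691 ± 59.4 bp (SD, n = 2 each) and a log2 ratio of −0.33. The difference lay inside the gene, where the peak reached 721 and 650 bp in the controls and 551 and 532 bp in Snf5 CKO. On the outer side the groups overlapped, at 187 and 179 bp against 181 and 116 bp. Patl2, an RNA-binding protein gene on the minus strand, starts 83 bp from this gene end, so the peak lies at both genes.

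Majin (gene identifier 622554, chromosome 19, 6184345 to 6224230) was the gene with the greatest difference. Its peak over the lower-coordinate gene end was 1222 and 1172 bp long in the controls. Snf5 CKO 2 had 712 bp, and Snf5 CKO 1 had no peak there. The controls thus differed by far less than the Snf5 CKO libraries did: the means were 1197 ± 35.4 bp and 356 ± 503 bp (SD, n = 2 each, a missing peak as 0). Snf5 CKO 1 was the longest of the 4 lists, and its nearest peak, 315 bp in the flank at 6180173 to 6180487, was found in no other library. In the lists, the −log10 q of the Majin peak was 9.87 and 8.57 in the controls and 1.86 in Snf5 CKO 2, where only 5.51% of that library's peaks had a lower value. With a −log10 q of at least 3 required in every library, Majin had a peak in both controls and in neither Snf5 CKO library.

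A peak in both controls and Snf5 CKO 2 but not in Snf5 CKO 1 was found at 117 of 21883 genes, or 0.535%, Majin among them. A gene-end peak in both controls and in neither Snf5 CKO library was found at 2.97% of genes, and at none of the 7 members. With the −log10 q of at least 3 the share was 3.84% of genes, and Majin was then the single member. The 3 genes whose lengths over the 4 libraries were nearest to those of Majin, by distance of log2(length + 100 bp) among genes with the same presence, were Tradd, Cpne7 and Fcrlb. Tradd, an adaptor gene of TNF receptor signalling, had 1345 and 1270 bp in the controls and 632 bp in Snf5 CKO 2. Cpne7, a copine gene, had 1441, 1127 and 768 bp in the same libraries, and Fcrlb, an Fc receptor-like gene, 1021, 1226 and 556 bp.

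The pair that spans the nuclear envelope kept peaks in all 4 libraries. Sun1 (gene identifier 77053, chromosome 5, 139200564 to 139249839, plus strand) had a start peak of 1355 and 1187 bp in the controls, against 917 and 940 bp in the mutant pair. The groups did not overlap, with means of 1271 ± 119 bp and 929 ± 16.3 bp (SD, n = 2 each) and a log2 ratio of −0.45. The inner edge lay 667 and 613 bp into the gene in the controls and 381 and 443 bp in Snf5 CKO, and the outer edge 687 and 573 bp upstream against 535 and 496 bp. A second Sun1 start site in the promoter table, at 139215158, had none of its 300 promoter bases under a peak in any library.

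Kash5 (gene identifier 384619, chromosome 7, 45183619 to 45204919, minus strand) had the most even controls but for Cdk2, and Snf5 CKO libraries that differed from each other. Its start peak was 1015 and 1003 bp long in the controls, and 489 and 746 bp in the mutant pair. The groups did not overlap, with means of 1009 ± 8.49 bp and 618 ± 182 bp (SD, n = 2 each) and a log2 ratio of −0.71. The ratio was −0.44 without Snf5 CKO 1 and −1.05 without Snf5 CKO 2. In the controls and in Snf5 CKO 2 the peak covered the start site and reached 121, 105 and 54 bp upstream of it. In Snf5 CKO 1 the peak lay wholly inside the gene and began 119 bp past the start site, the 1 case among the members in which a start peak did not touch its start site.

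Of the kinase pair, Spdya (gene identifier 70891, chromosome 17, 71526895 to 71589533, plus strand) had 2 separate peaks within the annotated gene. The first lay at the lower-coordinate gene end, 38 bp from the start of Ndc80, a kinetochore gene on the minus strand, and measured 1138, 1253, 937 and 899 bp in Control 1, Control 2, Snf5 CKO 1 and Snf5 CKO 2. The second lay over the start site of the promoter table, at 71552061, which is inside the annotated gene, and measured 1711, 1604, 905 and 885 bp. Both peaks were shorter in both Snf5 CKO libraries. The difference was greater at the start site (means of 1658 ± 75.7 bp and 895 ± 14.1 bp, SD, n = 2 each, log2 ratio −0.89) than at the gene end (1196 ± 81.3 bp and 918 ± 26.9 bp, log2 ratio −0.38); whether the ratios differ was not tested. The start site peak drew back by 332 bp upstream and 431 bp downstream on average, the most on the inner side among the members.

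Cdk2 (gene identifier 12566, chromosome 10, 128697938 to 128705051, minus strand), the gene of a kinase active in all dividing cells as well, had the most even control lengths. They were 1366 and 1364 bp, against 988 and 854 bp in Snf5 CKO. The means were 1365 ± 1.41 bp and 921 ± 94.8 bp (SD, n = 2 each), a log2 ratio of −0.57. Most of the difference was upstream, where the peak reached 541 and 610 bp in the controls and 262 and 221 bp in Snf5 CKO. Downstream it reached 824 and 753 bp against 725 and 632 bp.

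**Figure D2:**
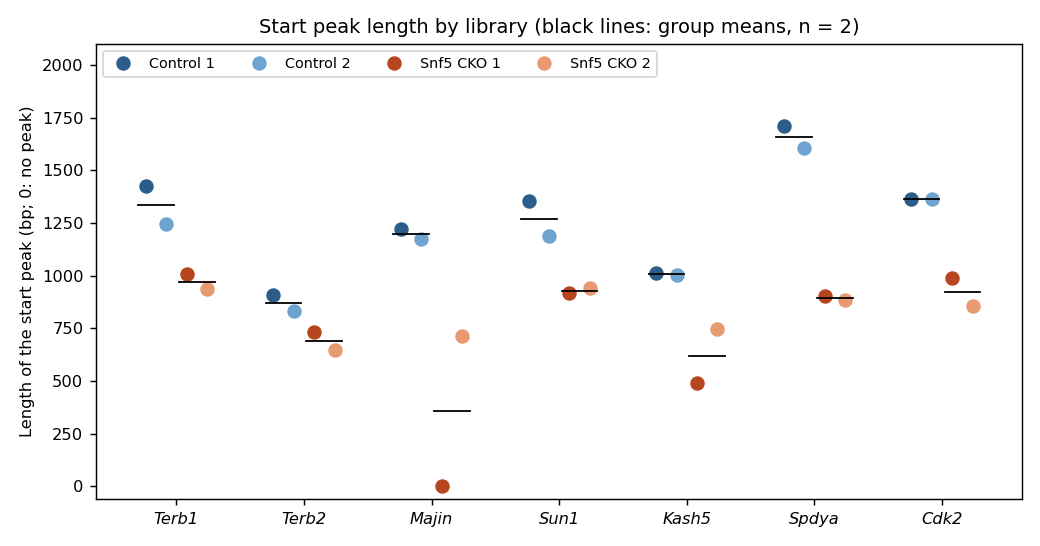
Length in bp of the start peak in each library for the 7 genes, with 0 for no peak and black lines for the mean of each group (n = 2). In all 7 genes both Snf5 CKO points lie below both control points, and the Majin point of Snf5 CKO 1 is at 0.

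The order of the control means was Spdya, Cdk2, Terb1, Sun1, Majin, Kash5 and Terb2, from 1658 to 870 bp. Neighbours in this order overlapped in their control values from Cdk2 to Majin, and the other neighbours did not. In Snf5 CKO the order was Terb1, Sun1, Cdk2, Spdya, Terb2, Kash5 and Majin. The first 4 of these, with means between 972 and 895 bp, overlapped neighbour by neighbour, as did the last 3, while Spdya and Terb2 did not overlap. Across the 5 members with a start site in the table, the outer edge was nearer the start site in both Snf5 CKO libraries than in both controls in 5 of 5 and the inner edge in 5 of 5. Among 9827 genes measured the same way, the shares were 55.4% for the outer and 70.9% for the inner edge, with median retractions of 90.0 bp and 159 bp. Outer retractions among the 5 ran from 115 bp in Sun1 to 334 bp in Cdk2, and inner ones from 110 bp in Cdk2 to 431 bp in Spdya.

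Each peak also carries a fold enrichment over its local background, given by the authors' peak caller, which is used here to describe and rank peaks within a list. At the lower-coordinate end of Terb2 it was 6.54 and 5.95 in the lists of Control 1 and Control 2, above 97.5% and 94.7% of the peaks in those lists, and 5.40 and 5.01 in those of Snf5 CKO 1 and Snf5 CKO 2, above 80.8% and 67.9%. At Majin it was 4.56 and 4.45 in the controls and 3.29 in Snf5 CKO 2, above 72.6%, 69.3% and 8.43% of the respective lists. These were the 2 members whose Snf5 CKO start peaks all had folds below both control folds. At Cdk2 the folds were 4.65, 4.70, 6.25 and 6.39 in Control 1, Control 2, Snf5 CKO 1 and Snf5 CKO 2, above 74.9%, 76.0%, 90.2% and 89.7% of each list. At the Spdya start site they were 4.49, 4.32, 6.25 and 5.96, at Sun1 5.36, 5.12, 7.19 and 6.58, at Kash5 5.0, 5.32, 5.78 and 5.72, and at Terb1 4.96, 5.39, 5.65 and 5.83 in the same order. So at these 5 genes a shorter peak in Snf5 CKO stood beside a higher fold, while at Terb2 and Majin it stood beside a lower one. How often this was so over all genes was not counted. Ranks within the lists were higher in both Snf5 CKO libraries at Cdk2, Spdya and Sun1. At Terb1 and Kash5 the ranks of the groups overlapped. Terb1 stood above 81.4%, 89.0%, 84.1% and 83.2% of each list in the same order, and Kash5 above 82.2%, 88.0%, 85.7% and 81.5%. Ranks come from lists of unequal length, and the list medians of fold differed too, at 3.86, 3.91, 4.13 and 4.41, so these values cannot show whether signal changed.

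**Figure D3:**
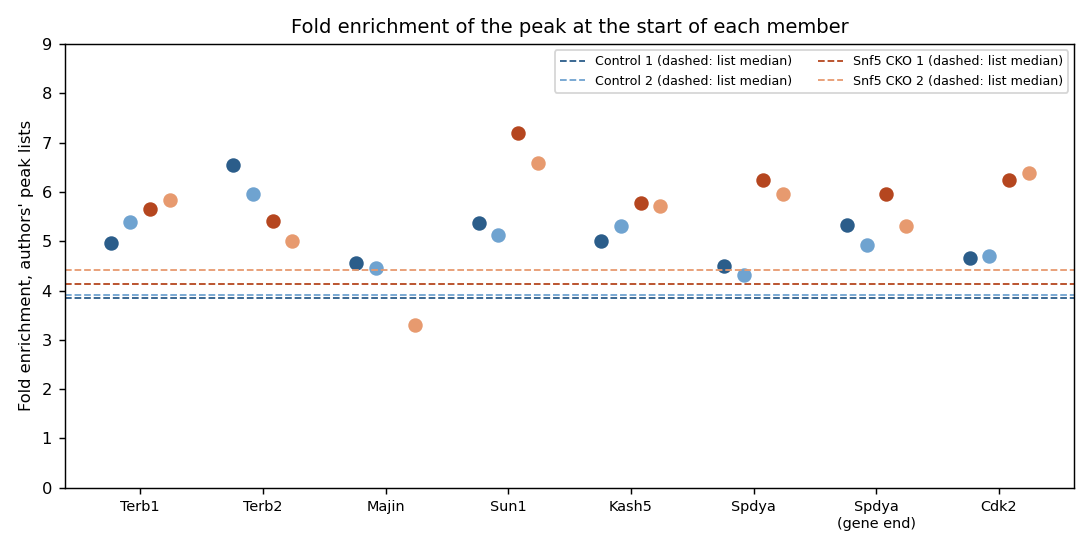
Fold enrichment of the start peak of each member in the authors' 4 lists, with Spdya also at its lower-coordinate gene end; dashed lines are the median of all peaks in each list. Terb2 and Majin are the members whose Snf5 CKO points lie below both control points.

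The fixed rule for gene ends summed all peaks within 1 kb of either end of the gene, and by it 55.0% of the 21883 genes had a peak in all 4 libraries. Of the 12027 such genes, 77.3% were shorter in both Snf5 CKO libraries, and all 6 members with peaks in all 4 were. The median log2 ratio of those 6 was −0.46, against −0.41 over all genes, and with the start peaks it was −0.51 against −0.40. The gene-end region of Terb1 lay within 1 kb of an end of Gm22148 and of Nae1. For 4 other members the sum held a peak that also lies at a neighbouring gene. At Terb2 and Spdya it was the peak shared with the starts of Patl2 and Ndc80, and at Spdya the sum left out the start site peak, so its ratio was −0.38 in place of −0.89. At Cdk2 it took in the control peaks near Rab5b and Pmel, which crossed into the window while the Snf5 CKO peaks there stopped short of it, and the log2 ratio was −1.61 in place of −0.57. At Kash5 it took in a peak near Pth2, in both controls and Snf5 CKO 2, and the ratio was −1.32 in place of −0.71. That ratio also moved with single libraries: it was −0.76 without Snf5 CKO 1 and −2.23 without Snf5 CKO 2.

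The place of the members among all genes differed between measures. Of the genes with a start peak in all 4 libraries, 10.9% had a lower ratio than Spdya, 19.3% a lower one than Kash5 and 30.8% a lower one than Cdk2. For Terb1, Sun1 and Terb2 the shares were 43.0%, 43.7% and 60.4%. With all 4 libraries, Terb2 was thus shortened less than the median gene and the other 5 more, while Majin, without a peak in Snf5 CKO 1, has no ratio. The side on which Terb1 and Sun1 fell moved with single libraries. Their ratios were −0.36 and −0.35 without Control 1, and −0.55 and −0.55 without Control 2. The all-gene median of −0.40 is that of all 4 libraries. By the gene-end sums, with their neighbouring peaks, 1.60% of genes had a lower ratio than Cdk2 and 3.54% a lower one than Kash5. By covered bases in the gene with 10 kb on each side, 4.52% of genes had a lower ratio than Majin.

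**Figure D4:**
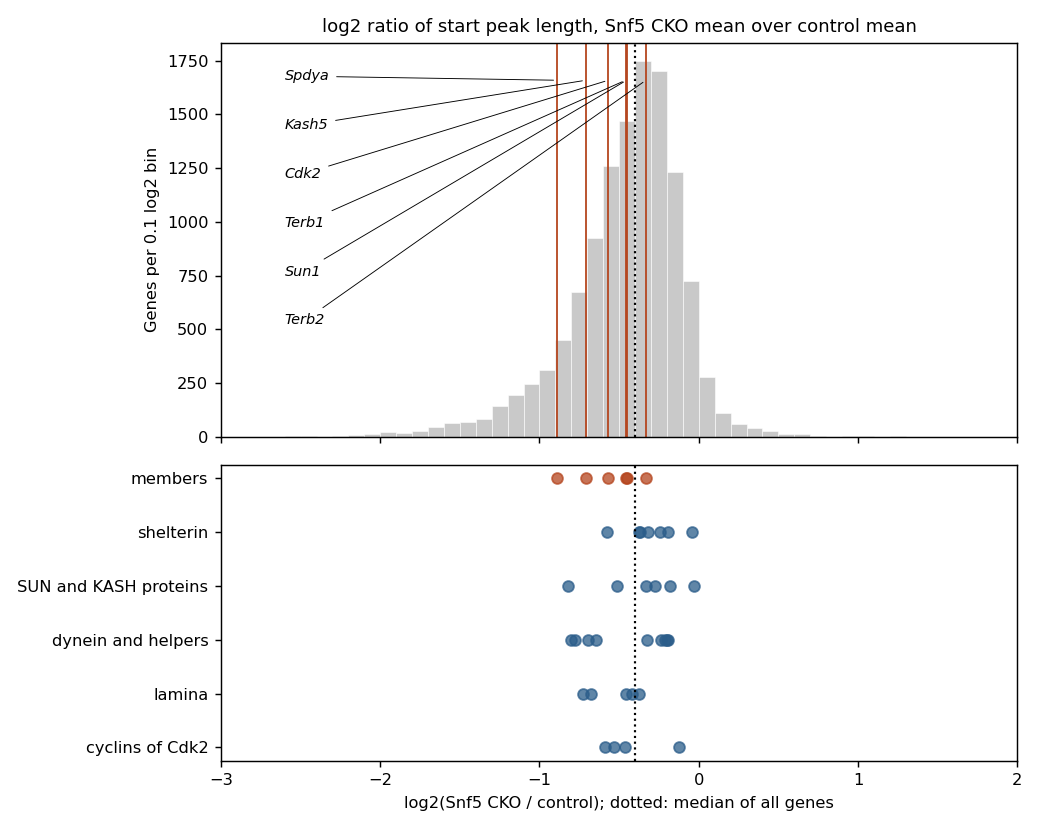
Top, number of genes in each 0.1 bin of the log2 ratio of start peak length (Snf5 CKO mean over control mean; values beyond −3 and 2 in the end bins), with the 6 members that had a peak in all 4 libraries as vertical lines; bottom, the members and the genes of 5 related lists as points. The dotted line is the median of all genes, −0.40, and members lie on both sides of it.

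Genes whose proteins work beside the 7 were described in the same way. Of 34 genes in 5 lists, 32 had a gene-end peak in all 4 libraries and 26 of these were shorter in both Snf5 CKO libraries and 0 longer, with a median log2 ratio of −0.38. Over all genes, 55.0% had a gene-end peak in all 4 libraries, and 77.3% of those were shorter in both Snf5 CKO libraries. So neither this count of shorter genes nor those of the single lists below are particular to them. Sun5 and Ccna1, genes with known roles in the male germ line, had no gene-end peak in any library. Ccna1 did have start peaks of 945, 983, 937 and 831 bp in Control 1, Control 2, Snf5 CKO 1 and Snf5 CKO 2. The share of all genes with a gene-end peak in only some libraries is not given here, and the exact pattern of Majin was found at 0.535%. No gene of the 5 lists had a gene-end peak in some libraries and not in others, as Majin did. At start sites, 2 did, and both were singled out after their values were seen. Syne3 had no start peak in either control and 967 and 392 bp in Snf5 CKO, and Dctn1, for the largest dynactin subunit, had 626 and 235 bp in the controls and none in Snf5 CKO.

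All 7 genes of shelterin, the complex that caps telomeres, had gene-end peaks in all 4 libraries, and 6 were shorter in both Snf5 CKO libraries. Terf1, which encodes the TRF1 protein that TERB1 binds, was the exception, with 1445, 1476, 1677 and 1164 bp. Terf2, for another telomere-binding protein of the complex, had the lowest ratio at −0.58, and Terf2ip had −0.38. Of the other SUN and KASH genes, 7 of 8 had peaks and 5 were shorter. Syne4, for a nesprin of the outer membrane, had a ratio of −0.82 and Syne3 one of −0.57, while Spag4, a SUN-domain gene, had −0.03 with overlapping groups.

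The dynein motor, which KASH5 recruits, and its helpers had peaks at all 10 genes, and 9 were shorter. The lowest ratios were those of Dync1li1 at −0.80 and Nde1 at −0.78. In the lamina list 3 of 5 genes were shorter, and Lmnb1, for lamin B1, had the lowest ratio at −0.72. Lmna, for the A-type lamins, had −0.46 with overlapping groups (533 and 672 bp against 333 and 543 bp). By start peaks Lmna had 1859 and 2086 bp against 1061 and 1406 bp, a ratio of −0.68 with no overlap, and 5 of 5 lamina genes were shorter. Of the cyclins that pair with CDK2, 3 of 4 had gene-end peaks and all 3 were shorter, with Ccne2 at −0.59 and Ccne1 at −0.53. By start peaks, 27 of 31 genes with peaks in all 4 libraries were shorter and 0 longer, beside 78.8% shorter over all genes. The medians of the 5 lists by gene ends lay between −0.53 and −0.32, against −0.41 over all genes.

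Beyond the gene ends, the members with 10 kb on each side held 18, 17, 17 and 17 peaks in Control 1, Control 2, Snf5 CKO 1 and Snf5 CKO 2, which merged into 24 regions. Of the 24, 9 lay at a member's gene end. Of the other 15, 4 were found in all 4 libraries: the Spdya start site region described above, and regions at the neighbouring genes Dync1li2, Get4 and Trmt61b. Another 7 were found in 1 library only, 6 of them in a control and 1 in Snf5 CKO 1. The split of such regions between libraries over all genes was not counted, so this one is not set against a background.

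Terb1 was the single member with regions found in both Snf5 CKO libraries and in neither control, and it had 2 of them. They lay inside the gene at 104459779 to 104460045 and 104465067 to 104465328, which is 49842 and 44559 bp from the start site. The first measured 249 and 200 bp, with folds of 3.82 and 3.91, and the second 215 and 262 bp with folds of 3.93 and 4.27. Whether they are exonic or intronic is not in the gene table used. Such a region in the gene or its flanks was found at 8.05% of all genes. That share takes no account of gene length, and Terb1 spans 63170 bp. The −log10 q of the 2 Terb1 regions lay between 2.76 and 3.57.

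The reverse, a region in both controls and in neither Snf5 CKO library, was found at 17.6% of genes and at Kash5 among the members. It lay in the flank beyond the lower-coordinate end of Kash5, at 45174685 to 45175228, near the end of Slc17a7, with 331 and 500 bp in Control 1 and Control 2. A second region beyond that end, near Pth2, was a single peak of 1398 and 1177 bp in the controls and a pair of peaks in each Snf5 CKO library. Those measured 224 and 382 bp in Snf5 CKO 1 and 219 and 607 bp in Snf5 CKO 2. The longer peak of each pair had a fold of 7.16 and 6.03 in its list, and the unbroken control peaks 3.56 and 3.59 in theirs. Terb2 had a region inside the gene at 122198870 to 122199485 in Control 2 (616 bp), Snf5 CKO 1 (385 bp) and Snf5 CKO 2 (276 bp), and not in Control 1.

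Total bases under peaks in the gene with 10 kb on each side were fewer in both Snf5 CKO libraries than in both controls at 5 of the 7 genes, and at 67.3% of the 15275 genes with peaks there in all 4 libraries. The exceptions were Terb1 and Terb2. Terb1 had 2624, 2253, 2520 and 2242 bp in Control 1, Control 2, Snf5 CKO 1 and Snf5 CKO 2, and Terb2 had 909, 1446, 1118 and 925 bp. Majin had the lowest ratio, −1.44 on the log2 scale, with 1222 and 1572 bp in the controls and 315 and 712 bp in Snf5 CKO, and the 315 bp in Snf5 CKO 1 were all in the flank.

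**Figure D5:**
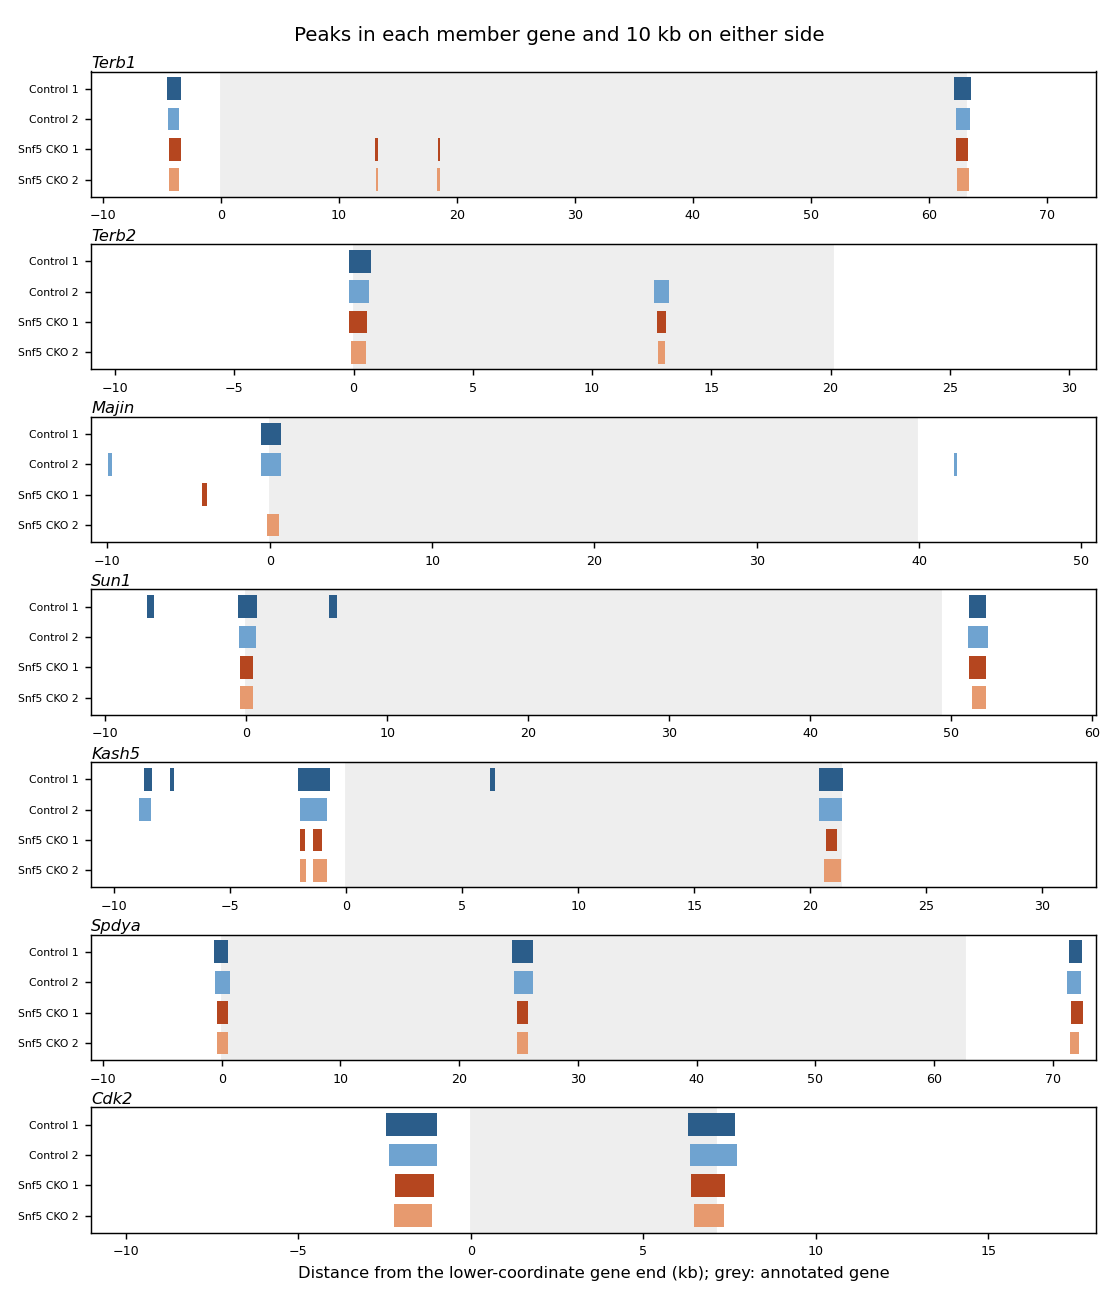
Peaks of the 4 libraries in each member gene (grey) and 10 kb on either side, in kb from the lower-coordinate gene end. Terb1 shows 2 narrow peaks inside the gene in Snf5 CKO alone, and Majin has no peak at its lower-coordinate end in Snf5 CKO 1.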

How the data were processed

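Peak lists of 4 ATAC-seq libraries were used, 2 Control and 2 Snf5 CKO, grouped and numbered by the labels. Per the submitters' processing notes, the build was mm10 and the tools named are MACS2 2.2.7.1, Picard 2.25.2, SAMtools 1.10, Bowtie2 2.4.2 and Trim Galore 0.6.5. For thresholds, duplicate handling and any shift of read ends, the sources used here give nothing. The authors deposited broad peaks called separately in each library, with a whole-number score equal to 10 times the −log10 q to within 1, a ratio (fold enrichment over local background), and −log10 p and −log10 q.

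Here Python 3.11.15 with pandas 2.3.3 and SciPy 1.17.1 was used to intersect peaks (at least 1 bp) with windows of 1 kb around gene ends and start sites and with genes plus 10 kb. Differences in length between groups were tested with exact permutation tests. Scripts were tested on simulated data. Members and lists were chosen with earlier results of these data known. Named genes are all members, the related genes that lacked a gene-end peak in a library, up to 2 per related list with the largest absolute ratio, and the 3 nearest to Majin in length. Terf1, Spag4, Dctn1 and the neighbouring genes were named after their values were seen. No read totals were used, and called peak length moves with depth and background.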

Additional observations from a re-analysis of the deposited data

How the results depend on the processing

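Under the alternatives tried, the counts of members with gene-end peaks in all 4 libraries, with shorter peaks and with fewer covered bases each stayed within 1.5 times the main count, and all 101 recomputed ratios of single members stayed below 0. Majin has no ratio and is not among them. Some settings left every ratio at its main value, such as a −log10 q of at least 3 and lists of equal length. The median over all genes was itself −0.41. The median log2 ratio over members, −0.46 in the main setting, was −0.57 with the gene start alone, which leaves out Terb2 and Majin. It ran from −0.55 without Control 2 to −0.40 without Control 1 when each library was left out in turn. With each Snf5 CKO library paired with the control of the same number (replicate block) it was −0.45, 6 members had shorter peaks and 6 rather than 5 had fewer covered bases; the labels do not say that the numbers mark a shared source. Requiring a −log10 q of at least 3 left Majin with no peak in either Snf5 CKO library, and without Snf5 CKO 1 all 7 members had peaks in every library. The ratios of Cdk2 and Kash5 moved by over 1.5 times with the gene start alone or windows of 500 bp, to −0.57 and −0.71, with windows of 2 kb, to −0.47 and −0.78, and with only the bases inside the windows, to −0.60 and −0.84. Cdk2 also had −0.57 when 200 bp of a window had to be covered, and Kash5 had −0.76 without Snf5 CKO 1 and −2.23 without Snf5 CKO 2. That of Sun1 was −0.76 with windows of 2 kb against −0.45, and that of Spdya moved from −0.38 to −0.89 with the gene start alone. The start peak ratio of Kash5 was −0.44 without Snf5 CKO 1. The start peak measure was added after seeing the data. Depth is unknown, so a missing peak sets no upper limit on accessibility.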
